A study of Saccharomyces cerevisiae with 27 samples.

Results

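The first hour at 37 °C was examined in the G906D strain of Saccharomyces cerevisiae, by comparing its 3 libraries taken after 1 h at 37 °C (replicates A, B and C) with its 3 libraries taken at 0 h, before the temperature was raised. These 6 libraries were chosen by strain and time point as labelled, out of 27 poly(A) RNA-seq libraries covering 3 strains at 0, 1 and 2 h with 3 replicates each. By the study's methods all strains derived from haploid BY4741 cells, an identity that the mating-type counts below go against, lacked the chromosomal ALA1 gene and lived on a copy of it carried by the LEU2 plasmid pRS315, which was brought in by plasmid shuffling. The 0 h cells were log-phase cultures kept at 30 °C in YPD, a rich medium, and the 1 h cells came from the same kind of culture after an hour at 37 °C. ALA1 encodes the alanyl-tRNA synthetase (AlaRS). Its G906D form is impaired in loading alanine onto tRNA, the C719A form of the second mutant strain is impaired in removing wrongly attached serine, and the WT strain carried the unchanged gene. The G906D allele was therefore the only AlaRS of its cells at both time points. Because the 0 h cells carry it too, the comparison describes the passage to 37 °C in a mutant cell. The 1 h cells also spent an hour longer in culture, and no library came from cells kept at 30 °C for that hour, so temperature and time in culture cannot be told apart.

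AlaRS charges tRNA with alanine, and when charging fails, uncharged tRNA activates the kinase Gcn2, which favours translation of the transcription factor Gcn4 and holds back translation in general. Yeast cells meet heat with a pair of transcription programs. Hsf1 binds heat shock elements and drives chaperone genes, while Msn2 and Msn4 bind stress response elements and drive a broad set of protective and metabolic genes. The same shift is known to lower, for a time, the mRNAs for ribosomal proteins and for the factors that build ribosomes, whose genes carry PAC and RRPE elements bound by Dot6, Tod6 and Stb3.

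The sequences below are shown because the results turn on the genes beside them, and all were read from the R64 reference genome, 5′ to 3′ on the strand of the gene. In the ALA1 stretch at chrXV:946377-946409, minus strand, inside the coding sequence, the capitals mark the reference glycine codon that the G906D allele replaces.
ALA1: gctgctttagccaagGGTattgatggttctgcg
In the following stretches upstream of the start codon of chaperone genes, capitals mark heat shock elements, searched as TTCNNGAANNTTC or GAANNTTCNNGAA, and stress response elements, searched as AGGGG or CCCCT. HSP104 lies at chrXII:88313-88458 on the plus strand, SSA2 at chrXII:97690-97730 on the minus strand, HSP42 at chrIV:806371-806446 on the plus strand and SIS1 at chrXIV:619880-619915 on the minus strand.
HSP104: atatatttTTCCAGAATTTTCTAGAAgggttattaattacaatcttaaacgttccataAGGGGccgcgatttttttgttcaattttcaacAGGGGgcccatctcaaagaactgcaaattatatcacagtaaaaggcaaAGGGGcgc
SSA2: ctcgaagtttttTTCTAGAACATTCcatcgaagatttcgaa
HSP42: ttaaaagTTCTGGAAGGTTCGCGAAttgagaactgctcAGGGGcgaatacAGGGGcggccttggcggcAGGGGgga
SIS1: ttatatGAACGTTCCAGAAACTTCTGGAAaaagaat
Of the general stress genes, HSP12 is shown at chrVI:106816-107076, HSP26 at chrII:381545-381710 and CTT1 at chrVII:654249-654279, all on the plus strand, with stress response elements in capitals.
HSP12: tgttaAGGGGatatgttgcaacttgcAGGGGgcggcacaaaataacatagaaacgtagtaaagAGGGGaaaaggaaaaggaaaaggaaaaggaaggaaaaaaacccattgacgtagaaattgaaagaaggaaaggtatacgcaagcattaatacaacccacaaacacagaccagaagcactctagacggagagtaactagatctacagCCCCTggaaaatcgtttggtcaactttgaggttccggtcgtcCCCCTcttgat
HSP26: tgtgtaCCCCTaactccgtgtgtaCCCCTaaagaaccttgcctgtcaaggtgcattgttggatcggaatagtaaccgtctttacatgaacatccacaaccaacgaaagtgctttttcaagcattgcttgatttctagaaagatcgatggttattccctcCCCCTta
CTT1: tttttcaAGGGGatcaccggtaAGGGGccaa
Of the ribosome biogenesis genes, GAR1 is shown at chrVIII:283410-283443 on the minus strand and NOP10 at chrVIII:241524-241559 on the plus strand, with the PAC element (GATGAG or CTCATC) and the RRPE element (AAAATTT or AAATTTT) in capitals.
GAR1: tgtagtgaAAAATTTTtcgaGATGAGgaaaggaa
NOP10: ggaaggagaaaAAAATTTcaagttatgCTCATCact

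The G906D libraries held 17564810 to 20395137 counts at 1 h and 15692106 to 21169797 counts at 0 h. Levels are given as CPM, the share of a library's counts on a fixed scale, after TMM scaling, which sets the libraries on a common scale by the bulk of the genes. Replicate A of 1 h stood apart from B and C: over 4646 genes, the SD of the log2 difference of A from the mean of B and C was 0.30, against 0.10 for B minus C, and 460 genes (9.9%) lay at least 0.5 away in A while 0 did so between B and C. A lay nearer to the 0 h libraries in cytosolic ribosomal proteins and core histones, where its median was 0.53 and 0.56 higher on the log2 scale, and in trehalose and glycogen genes, where it was 0.49 lower. Whether fewer cells held a transcript or each cell held less of it cannot be told apart in bulk samples. Scaling decided where the middle of the genes lay: the median log2 change of all genes was 0.04 with TMM and 0.53 with library size alone. Falls smaller than this shift of 0.49 have a direction that depends on the scaling, while small rises become larger on library size alone, and changes below are relative to the bulk of genes. The study's methods name BY4741, a MATa strain, yet the MATalpha genes were the abundant ones. The alpha-factor gene MF(ALPHA)1 had 19656, 13505 and 14105 raw counts at 1 h and 49710, 53615 and 41281 at 0 h, while the a-factor gene MFA1 had 220, 137 and 188 at 1 h and 131, 129 and 141 at 0 h. URA3 and MET17, which BY4741 lacks, were listed at 0 in all 27 libraries, and so was LYS2, which BY4741 carries. HYP2, which encodes an essential translation factor, was also listed at 0, so a 0 in these counts need not mean that a gene is missing.

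Transcript levels changed across much of the genome within the hour. Of 6386 genes tested, 2401 (37.6%) rose and 2161 (33.8%) fell at 0.05 after Benjamini-Hochberg adjustment, tested with the quasi-likelihood method of edgeR. At least 2-fold rises were seen for 711 genes (11.1%) and at least 2-fold falls for 802 (12.6%), and the 3 libraries of 1 h did not overlap the 3 of 0 h for 4674 genes (73.2%). Without replicate A of 1 h, 2399 genes rose and 2253 fell, and 4391 calls were shared in the same direction, 96.3% of the calls with all libraries and 94.4% of those without A. On library size alone, 3859 genes rose and 1081 fell.

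The genes that fell at least 2-fold started from higher levels than those that rose at least 2-fold. The 697 open reading frames that fell at least 2-fold held 21.7% to 29.4% of all counts at 1 h, against 56.8% to 58.7% at 0 h. The 651 that rose at least 2-fold held 20.7% to 26.1% at 1 h, against 4.02% to 5.10% at 0 h. Both sets were chosen by their change in these same libraries, so the direction of their shifts in share and level was fixed by the choice. Per length, the median level of the falling genes was 143 FPKM at 1 h and 267 FPKM at 0 h, and that of the rising genes 81.3 FPKM at 1 h and 20.5 FPKM at 0 h. The 10 most abundant transcripts took 8.67% to 9.76% of counts at 1 h and 14.7% to 16.3% at 0 h. At 1 h these 10 included HSP12, the drug pump gene PDR5 and the aldehyde dehydrogenase genes ALD4 and ALD6, none of which was among the 10 at 0 h, where glycolytic enzymes and ribosomal proteins such as ENO2, FBA1, RPL3 and RPS31 stood.

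**Figure D1:**
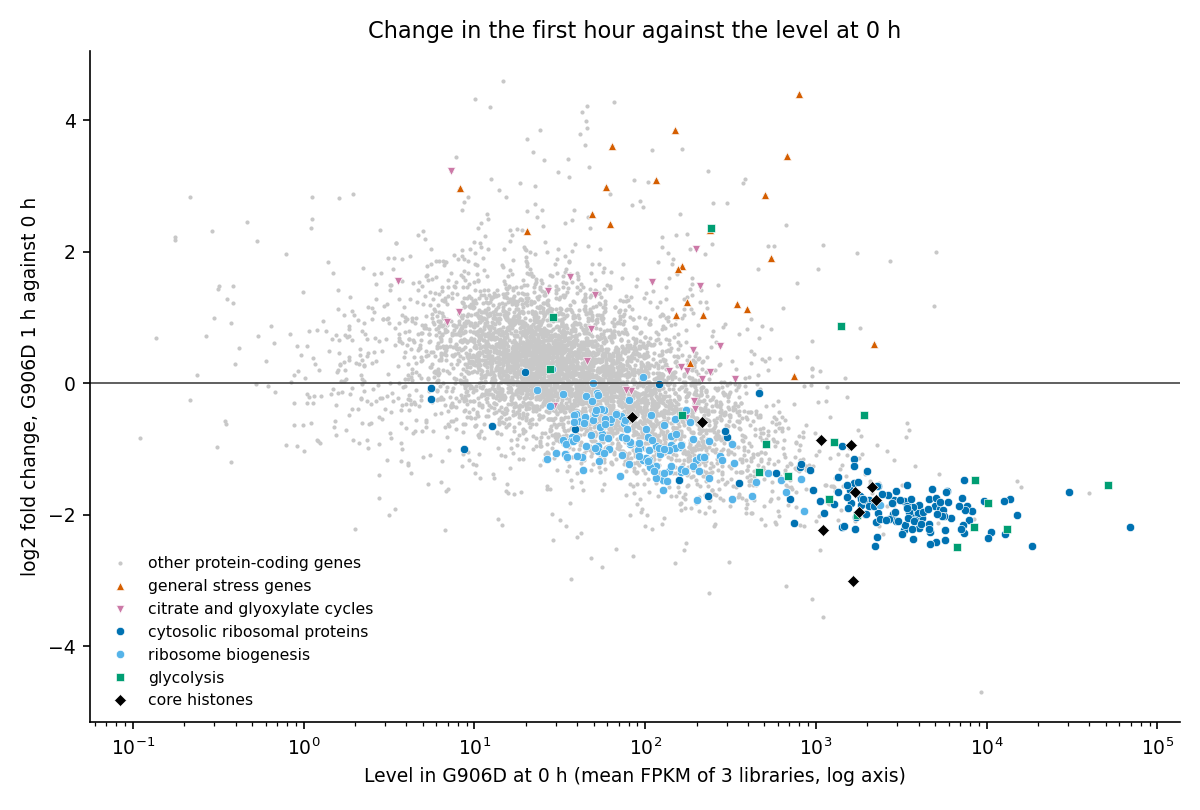
Log2 change of each gene in the G906D strain, 1 h at 37 °C over 0 h (y axis), against its mean level in the 3 libraries of 0 h as FPKM (x axis, log axis), each point 1 protein-coding gene, with 6 gene lists in colour. The cytosolic ribosomal proteins lie below 0 at high levels (131 of 137 fell), and the general stress genes lie above 0 (21 of 23 rose).

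General stress genes, the known targets of Msn2 and Msn4, rose together: 21 of the 23 in the list rose and 0 fell, with a median log2 change of 2.31 beside 0.04 for all genes. Their summed level was 30451 to 35868 CPM at 1 h, against 7231 to 9080 CPM at 0 h. HSP12, a small membrane-protecting protein, had 7977, 7861 and 6791 CPM at 1 h, against 290, 279 and 509 CPM at 0 h. Its level was 21-fold higher at 1 h (log2 4.39, SE 0.55, adjusted p = 1.4e-07 by edgeR's quasi-likelihood test). HSP26, a small heat shock protein that holds unfolded proteins, had 2201, 1801 and 1654 CPM at 1 h, against 123, 128 and 142 CPM at 0 h (log2 3.85, SE 0.21, edgeR adjusted p = 9.1e-13). CTT1, the cytosolic catalase, had 1695, 2954 and 2180 CPM at 1 h, against 255, 238 and 309 CPM at 0 h, an 8.52-fold rise in which the 1 h libraries differed among themselves more than those of 0 h. The aldehyde dehydrogenase ALD3 rose by 3.60 and the ribosome-associated TMA10 by 3.46 on the log2 scale.

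The largest rises among well-expressed genes joined stress genes with carriers and enzymes of carbon metabolism. TKL2, a transketolase, reached 658, 1270 and 1016 CPM at 1 h, against 38.1, 30.9 and 53.4 CPM at 0 h (log2 4.59, SE 0.51, edgeR adjusted p = 1.7e-08). STL1, which takes up glycerol, reached 2298, 3601 and 2934 CPM at 1 h, against 105, 103 and 248 CPM at 0 h. PUT4, the proline permease, reached 1818, 2526 and 2202 CPM at 1 h, against 65.8, 84.2 and 202 CPM at 0 h. In all 3 genes the highest library of 0 h was replicate C. That the libraries of 1 h and 0 h did not overlap was a condition for a place among the 10 largest rises. FMP45, a membrane protein, rose 17.4-fold, the acetate transporter gene ADY2 14.4-fold, and GID10, which recognises substrates of the GID ubiquitin ligase, 12.3-fold, and PHM7 and HBT1 completed the 10 with log2 changes of 4.31 and 3.71.

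**Figure D2:**
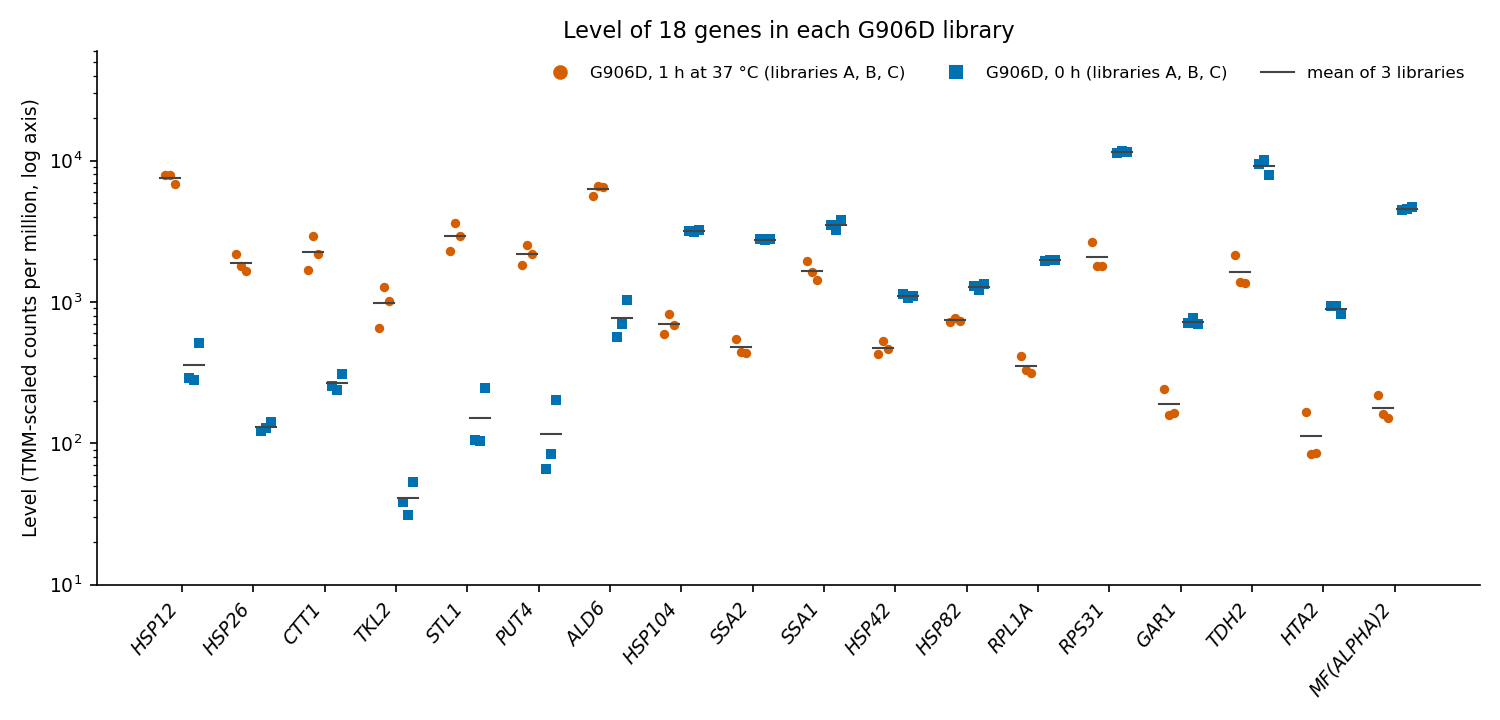
CPM after TMM scaling (log axis) in each of the 3 libraries of 1 h at 37 °C and of 0 h in the G906D strain, for 18 genes; each point is 1 library and each short line the mean of 3. HSP12, HSP26 and CTT1 are higher in every 1 h library, and HSP104, SSA2 and RPL1A are lower in every 1 h library.

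Chaperone genes did not move as a group. With TMM scaling, most of those for the Hsp70 and Hsp90 systems were lower after the hour at 37 °C. HSP104, the disaggregase that pulls proteins out of aggregates, had 596, 826 and 684 CPM at 1 h, against 3157, 3114 and 3253 CPM at 0 h (log2 -2.18, SE 0.18, edgeR adjusted p = 1.2e-10). SSA2, a constitutive cytosolic Hsp70, had 549, 446 and 438 CPM at 1 h, against 2774, 2726 and 2784 CPM at 0 h, a level 5.78 times as high at 0 h. HSP42, a small heat shock protein that gathers misfolded proteins, had 426, 526 and 467 CPM at 1 h, against 1142, 1059 and 1111 CPM at 0 h. For each of these genes the libraries of 1 h and 0 h were widely apart. Within the list of the disaggregase and small heat shock proteins 6 genes rose and 4 fell of 11, so HSP12 and HSP26 parted from HSP104, HSP42, the aggregate-sorting BTN2 (log2 -2.12) and HSP30, a plasma membrane protein that had 162, 104 and 117 CPM at 1 h, against 1342, 1482 and 1658 CPM at 0 h. HSP31, a glyoxalase with chaperone activity, rose by 1.27. Its relatives HSP32, HSP33 and SNO4, which are near-identical to each other, made up the rest of the 6 that rose. They were low, with HSP32 the highest at a mean of 7.55 CPM at 1 h and 1.09 CPM at 0 h. Reads of such similar copies cannot be assigned with certainty. CUR1 did not pass the test, with 53.9 ± 2.65 CPM at 1 h and 60.3 ± 5.55 CPM at 0 h (SD, n = 3 each).

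Among the 9 Hsp70 and Hsp110 genes, 8 fell and 1 rose, or 7 and 1 on library size alone. SSA1, which shares much of its sequence with SSA2, had 1939, 1638 and 1430 CPM at 1 h, against 3508, 3240 and 3815 CPM at 0 h. The heat-inducible SSA4 fell by 2.17 on the log2 scale, the ribosome-bound SSB2 by 1.94 and the Hsp110 gene SSE1 by 1.26. SSA3, another stress-inducible Hsp70, was the member that rose, with 177, 161 and 149 CPM at 1 h, against 97.8, 101 and 98.3 CPM at 0 h. Of 14 genes for Hsp70 partners, 8 fell and 2 rose, or 6 and 5 on library size alone. SIS1, an essential J-protein that delivers substrates to Hsp70, had 276, 273 and 268 CPM at 1 h, against 1031, 944 and 986 CPM at 0 h, and YDJ1 and ZUO1 fell by a similar size (log2 -1.87 and -1.92).

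Of 12 Hsp90 and co-chaperone genes, 10 fell and 2 rose, against 3 and 2 on library size alone. HSP82, the heat-inducible Hsp90, had 720, 770 and 733 CPM at 1 h, against 1307, 1210 and 1334 CPM at 0 h, a fall that did not pass the test on library size alone (log2 -0.30), and HSC82, its constitutive twin, fell by 1.33. AHA1 and SGT1, which assist Hsp90, rose by 0.61 and 0.62. All 14 genes of the CCT ring and prefoldin, which fold actin and tubulin, were called lower (median log2 -0.79), against 8 lower and 1 higher on library size alone. In the mitochondrion, 5 of 8 chaperone genes fell and 2 rose, with HSP78, the matrix disaggregase, at -1.73 and MDJ1 at 0.42. In the endoplasmic reticulum 6 of 11 fell and 2 rose, with the Hsp70 gene KAR2 at -1.69. The medians of the Hsp70 partners, the mitochondrial and the endoplasmic reticulum chaperones were -0.42, -0.35 and -0.24, and they became 0.07, 0.14 and 0.25 on library size alone.

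The translation machinery was the broadest group to fall. Of 137 cytosolic ribosomal protein genes 131 fell and 0 rose, with a median log2 change of -1.87, and 127 of them fell at least 2-fold. Together they took 7.31% to 10.4% of all counts at 1 h and 23.0% to 23.3% at 0 h, and the highest 1 h share was that of replicate A. RPL1A, a large-subunit protein, had 414, 328 and 316 CPM at 1 h, against 1951, 1968 and 1988 CPM at 0 h (log2 -2.48, SE 0.15, edgeR adjusted p = 1.7e-12). RPS31, which is made as a fusion with ubiquitin, fell by 2.47. Many ribosomal proteins are encoded by near-identical pairs, so the split of reads within a pair is uncertain. The sum over the list does not depend on that split. It would depend on whether reads matching both genes were counted, which is not given. Leaving out replicate A left 131 called lower.

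Of 127 ribosome biogenesis genes, 117 fell and 0 rose (median -0.96), against 76 lower and 9 higher on library size alone (median -0.47). GAR1, a protein of the particles that modify rRNA, had 243, 158 and 165 CPM at 1 h, against 706, 764 and 695 CPM at 0 h, and its partner NOP10 had 203, 138 and 138 CPM at 1 h, against 583, 551 and 587 CPM at 0 h. In both genes replicate A was the highest of the 1 h libraries and still below every 0 h library. Of 20 genes for RNA polymerases I and III, 17 fell and 1 rose, the exception being RRN3, a polymerase I factor, at 0.31, and 11 were lower and 3 higher on library size alone. Of 34 translation factors, 31 fell and 1 rose. The elongation factor genes EFT1 and TEF4 fell by 2.14 and 2.09, and the initiation factor gene TIF11 by 2.10, while EAP1, an inhibitor of cap-dependent initiation, rose by 0.55. Mitochondrial ribosomal proteins had 29 higher and 21 lower of 72 (52 and 7 on library size alone) and a median of 0.07, which is near the 37.6% higher and 33.8% lower of all genes.

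Cytosolic aminoacyl-tRNA synthetases, the enzyme family of AlaRS, fell as well: 17 of 18 were called lower and 0 higher, with a median of -1.23. The tryptophan and threonine enzymes WRS1 and THS1 were among the largest falls (log2 -1.83 and -1.77). ALA1 itself, read from the plasmid copy, had 1655, 1737 and 1639 CPM at 1 h, against 2715, 2776 and 2549 CPM at 0 h. Its change of -0.68 (SE 0.16, edgeR adjusted p = 0.00045) was smaller than the median of the family and did not pass the test on library size alone (-0.18). Counts per gene do not check the point mutation.

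All 10 core histone genes fell, with a median of -1.61. HTA2, one of the histone H2A genes, had 166, 83.9 and 85.5 CPM at 1 h, against 931, 942 and 817 CPM at 0 h (log2 -3.0, SE 0.21, edgeR adjusted p = 1.3e-11). The histone H4 genes HHF1 and HHF2 fell by 1.78 and 1.96, and the H2B gene HTB2 by 2.23. In each of these genes the 1 h value of replicate A was the highest of the 3. Of 12 mitotic genes 9 fell and 3 rose. SWI5, a transcription factor of the end of mitosis, had 28.76, 20.03 and 19.92 CPM at 1 h, against 119, 123 and 106 CPM at 0 h, and the mitotic cyclin gene CLB1 had 48.3, 37.2 and 32.5 CPM at 1 h, against 162, 165 and 145 CPM at 0 h. Of 16 genes of G1 and of the entry into the cell cycle, 8 fell and 2 rose, or 3 and 8 on library size alone, with the ribonucleotide reductase gene RNR1 at -1.53 and the arrest factor FAR1 at -1.70.

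Carbon metabolism genes moved in both directions. Of 18 glycolysis genes 14 fell and 3 rose (median -1.38), and the list held 5.33% to 7.06% of counts at 1 h, against 10.7% to 12.4% at 0 h. TDH2, a glyceraldehyde-3-phosphate dehydrogenase whose reads are hard to part from those of TDH3, had 2147, 1385 and 1363 CPM at 1 h, against 9520, 10044 and 7901 CPM at 0 h. ENO2 and TPI1, further glycolytic enzymes, fell by 2.21 and 2.18. The members that rose stand at the entry of glucose, HXK1 (hexokinase, log2 2.37) and GLK1 (glucokinase, 0.87), or are a minor isoform, GPM2 (1.01). Among 15 genes of ethanol and acetate metabolism 7 rose and 6 fell, or 9 and 3 on library size alone. The 7 and 6 are 46.7% and 40% of the list, beside 37.6% higher and 33.8% lower of all genes. ALD6, a cytosolic aldehyde dehydrogenase that makes acetate, had 5638, 6638 and 6565 CPM at 1 h, against 566, 696 and 1031 CPM at 0 h (log2 3.04, SE 0.28, edgeR adjusted p = 1.2e-09), whereas ADH1 and PDC1, which carry fermentation to ethanol, fell by 1.49 and 1.38.

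Of 26 genes of the citrate and glyoxylate cycles 15 rose and 3 fell, against 23 and 0 on library size alone. PCK1, which opens gluconeogenesis, had 128, 159 and 166 CPM at 1 h, against 14.1, 14.6 and 20.2 CPM at 0 h. ICL1 and MLS1 of the glyoxylate cycle rose by 1.61 and 1.55. Of 20 hexose transporter genes 11 rose and 4 fell, or 16 and 2 on library size alone, and 8 rose without 1 h replicate C. The 11 and 4 are 55% and 20% of the list, beside 37.6% higher and 33.8% lower of all genes. HXT5, known from slow growth, rose by 3.40 and HXT1 by 2.04, while the high-affinity HXT4 and HXT6 fell by 2.16 and 1.99. Reads of the related HXT genes may not be fully separable. Of 18 trehalose and glycogen genes 11 rose and 3 fell. The trehalases ATH1 and NTH2 rose by 2.76 and 2.00, the trehalose synthase subunit gene TSL1 had 1099, 2076 and 1799 CPM at 1 h, against 745, 682 and 850 CPM at 0 h, and the glycogen synthase GSY1 fell by 1.09. The respiratory chain and ATP synthase had 18 lower and 10 higher of 36, a balance that turned to 7 lower and 20 higher on library size alone.

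Amino acid pathways differed, and some had shares near those of all genes. Sulfate assimilation and methionine genes had 14 higher and 4 lower of 23, with MET6, methionine synthase, at 292, 243 and 240 CPM at 1 h, against 61.2, 63.5 and 62.7 CPM at 0 h, and the permease MUP1 at a log2 change of 1.82. Aromatic amino acid genes had 12 lower and 1 higher of 15, the exception being TRP1 (1.86), but 6 lower and 4 higher on library size alone, and the glutamate, aspartate and proline families had 12 lower and 4 higher of 19 (8 and 7 on library size alone), with GDH1 at -1.95. Arginine genes had 3 higher and 2 lower of 9 (6 and 0 on library size alone), with ARG3 at 1.09. That is 33.3% and 22.2%, beside 37.6% and 33.8% of all genes, with a median of -0.08. In the pathways of alanine, serine and glycine, 5 rose and 5 fell of 13, or 8 and 3 on library size alone. The 38.5% each way was near the shares of all genes (median -0.05). The alanine transaminase gene ALT1 rose by 1.02 and GCV2 of glycine cleavage by 1.25, while the serine hydroxymethyltransferase gene SHM1 fell by 1.43. GCN4, whose product drives these pathways and is set mainly by translation, had 690, 495 and 466 CPM at 1 h, against 1478, 1468 and 1546 CPM at 0 h, while GCN2 did not pass the test, at -0.09.

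Protein breakdown genes moved upward more often than downward outside the proteasome. Autophagy had 16 higher and 0 lower of 19 (median 0.98), led by the receptor ATG39 (2.33), and the ubiquitin and quality control list had 11 higher and 2 lower of 18, with polyubiquitin UBI4 at 1352, 1322 and 1354 CPM at 1 h, against 582, 590 and 670 CPM at 0 h. The proteasome had 14 lower and 6 higher of 33 with a median of -0.06, and 1 lower and 22 higher on library size alone. Antioxidant enzymes had 15 lower and 3 higher of 25, and 7 lower and 10 higher on library size alone. The thioredoxin TRX1 and the peroxiredoxin TSA1 fell by 2.09 and 1.67, and the 3 that rose were CTT1, the mitochondrial peroxiredoxin PRX1 (1.73) and cytochrome c peroxidase CCP1 (0.89). Cell wall genes had 13 higher and 12 lower of 32 (22 and 6 on library size alone), shares near those of all genes, with the mannoproteins CWP1 at 2.74 and CWP2 at -1.57. Of 25 ergosterol synthesis genes 19 fell and 3 rose, with a median of -0.47 that became 0.03 on library size alone.

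The largest falls brought together genes of several roles. MF(ALPHA)2, the second alpha-factor gene, had 220, 162 and 150 CPM at 1 h, against 4494, 4541 and 4730 CPM at 0 h, a level 25.9 times as high at 0 h (log2 -4.69, SE 0.22, edgeR adjusted p = 9.3e-14). All 4 MATalpha marker genes fell, SAG1 (alpha-agglutinin) by 2.16, MF(ALPHA)1 by 2.12 and STE3 (the a-factor receptor) by 1.69, while of the 7 MATa markers 2 rose and 1 fell at summed levels of 90.9 to 93.0 CPM at 1 h, against 69.9 to 85.9 CPM at 0 h. ZPR1, a chaperone of elongation factor 1A, had 225, 177 and 187 CPM at 1 h, against 1993, 1881 and 1829 CPM at 0 h. YHB1, the flavohaemoglobin that detoxifies nitric oxide, had 140, 127 and 121 CPM at 1 h, against 1066, 1150 and 1060 CPM at 0 h. The other largest falls were TIR1, a cell wall mannoprotein (log2 -3.18), WSC4 (-2.97), the IMP dehydrogenase IMD2 (-2.74), the acid phosphatase PHO3 (-2.72) and UTR2, which links chitin to glucan (-2.63).

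Transcription factor genes of the heat and growth programs rose more often than they fell, at 20 higher and 4 lower of 28 (median 0.77). HSF1 had 260, 312 and 297 CPM at 1 h, against 181, 182 and 185 CPM at 0 h (log2 0.67, SE 0.09, edgeR adjusted p = 5.4e-07). MSN2 had 151, 211 and 217 CPM at 1 h, against 96.8, 95.9 and 98.8 CPM at 0 h, whereas MSN4, at 82.6 ± 17 CPM at 1 h and 76.5 ± 8.36 CPM at 0 h (SD, n = 3 each), did not pass the test. STB3, which binds RRPE elements, rose by 1.97 and SFP1, an activator of ribosome genes, by 1.28. The 4 that fell were GCN4, HAC1 of the unfolded protein response (-0.95), HAP4 of respiration (-1.55) and UPC2 of sterol synthesis (-0.33, and 0.17 on library size alone).

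The 500 bases before the start codon of 5825 open reading frames were searched on both strands for the elements spelled out above. A match is a run of letters in this window and not a measured binding site. Stress response elements stood in 34.5% of all promoters, in 49.6% of those of genes that rose at least 2-fold and in 29.1% of those that fell at least 2-fold. They were held by 22 of the 23 general stress genes, but that list was drawn up as targets of Msn2 and Msn4. Its high share could follow from that choice. HSP12 held 5, HSP26 3 and CTT1 3, of which 2 are in the stretch printed. Heat shock elements in the strict form used here stood in 1.48% of all promoters, in 0.922% of the genes that rose at least 2-fold and in 3.87% of those that fell at least 2-fold. Of the 86 genes with a heat shock element 23 rose and 46 fell, with a median log2 change of -0.37 beside 0.05 for all 5825. The 473 genes with at least 2 stress response elements and no heat shock element had a median of 0.42, with 265 higher and 114 lower. HSP104 and HSP42 carry both kinds of element and were lower at 1 h, as were SSA2 and SIS1, which carry heat shock elements only. PAC and RRPE elements stood together in 712 promoters, whose genes had a median of -0.40, and they were held by 113 and 120 of the 127 ribosome biogenesis genes, against 27.9% and 34.6% of all promoters. These shares describe the promoters and were not tested.

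**Figure D3:**
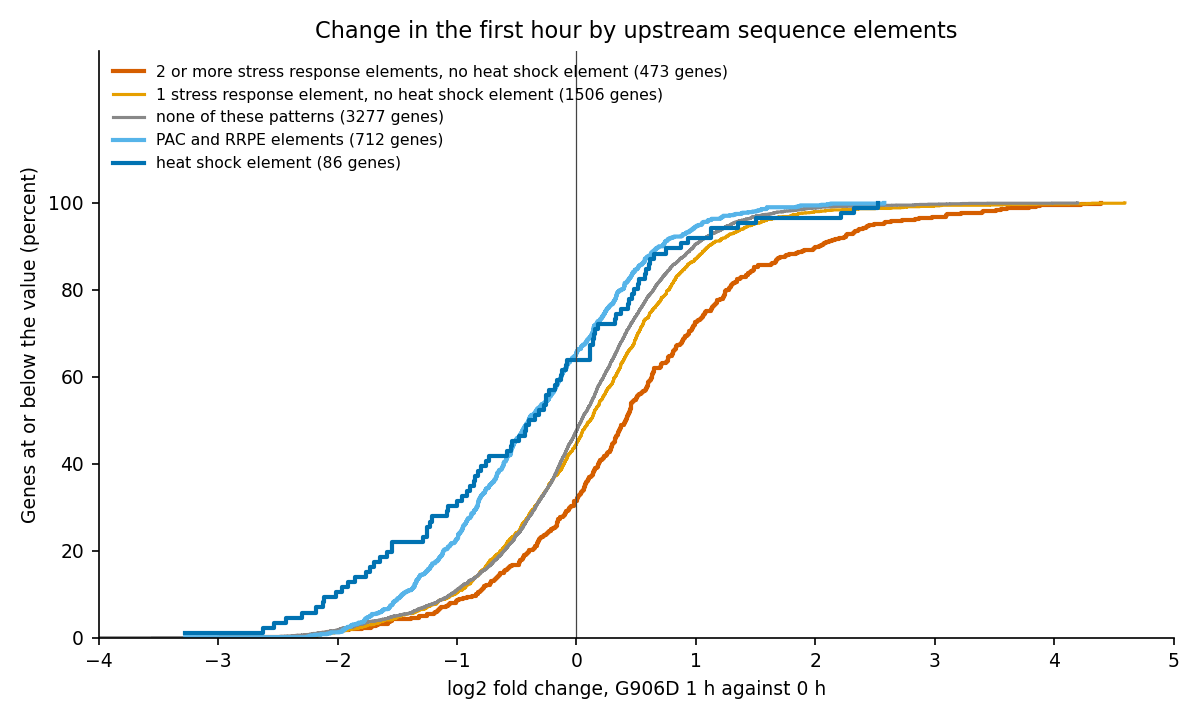
Log2 change in the G906D strain, 1 h at 37 °C over 0 h, for genes grouped by the elements found in the 500 bases before the start codon. Each curve gives the percent of a group's genes (y axis) at or below a change (x axis), and its crossing of 50 percent is the group's median. The 473 genes with at least 2 stress response elements have the curve farthest to the right (median 0.42), and the 86 with a heat shock element and the 712 with PAC and RRPE elements have medians of -0.37 and -0.40.

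The coding sequences themselves were read for codons of alanine, the amino acid that AlaRS loads onto tRNA. Alanine codons made up a median of 5.26% of codons over the 5825 genes, 5.28% in the 651 genes that rose at least 2-fold and 6.84% in the 697 that fell at least 2-fold, or 6.44% with the ribosomal proteins left out. The share was also higher in the 120 genes that rose at least 4-fold, at a median of 6.41%. In the 100 that fell at least 4-fold it was 8.34%, or 8.01% without the ribosomal proteins. The genes that fell at least 2-fold were also shorter (median coding length 720 bases, against 1203 over all genes) and more abundant. The part of length and level in the alanine share was not tested. The share was not worked out for the genes that changed in the other strains.

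The same hour was set against that of the other strains by testing the difference between the changes in the same model. Against the WT, the change in the G906D strain was higher for 998 genes (15.6%) and lower for 882 (13.8%) of 6386 by edgeR's quasi-likelihood test. This count leaned on single libraries: it was 2554 genes without replicate A of G906D at 1 h and 1173 without B or without C, and it was 1185 without WT 0 h replicate C, 1218 without WT 1 h replicate B, and 801 when fitted on the libraries of these 4 groups alone. On library size alone 2078 changes were higher and 341 lower. General stress genes rose further in the G906D strain, with 15 of 23 higher and 0 lower in the difference and medians of 2.31 in G906D and 1.21 in WT cells. Without WT 0 h replicate B, 8 of the 23 were higher. HSP26 changed by 3.85 in G906D and by 0.52 in WT cells, where its level was 479 ± 53.6 CPM at 1 h and 335 ± 146 CPM at 0 h (SD, n = 3 each), a difference of 3.33 (SE 0.28, edgeR adjusted p = 6.8e-08). HSP12 differed by 2.17, with a WT level at 0 h of 1002 ± 1096 CPM, so the WT libraries themselves were far apart there, and PUT4 by 2.61. Without WT 0 h replicate B these differences were 0.78 and 0.79 and did not pass the test, nor did they, at 1.80 and 2.17, with the replicate letter as a block within each strain. PDR5 had 7114, 9919 and 11406 CPM at 1 h and 2654, 2751 and 3141 CPM at 0 h in the G906D strain, and 5940 ± 1969 CPM at 1 h and 6712 ± 1114 CPM at 0 h in the WT (SD, n = 3), a difference of 1.91 that came with a lower level of the G906D strain at 0 h. The butanediol dehydrogenase BDH2 (1.88) and FMP45 (2.08) followed.

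Of the growth genes, part fell further in the G906D strain than in the WT. In the difference, 74 of the 137 ribosomal protein genes were lower and 0 higher, and so were 57 and 0 of 127 ribosome biogenesis genes, with medians of -1.87 and -0.96 in G906D and -1.25 and -0.37 in WT cells. These counts rested on single libraries: 10 and 19 genes were lower without WT 0 h replicate C, and 119 and 91 without replicate A of G906D at 1 h, while 20 and 21 were lower on library size alone. Core histones were lower for 8 of 10, and for 8 to 10 with 1 library omitted at a time (medians -1.61 and -0.35): HTA2 had 112 ± 47.2 CPM at 1 h and 897 ± 69.4 CPM at 0 h in the G906D strain, against 252 ± 53.7 CPM at 1 h and 472 ± 69.2 CPM at 0 h in the WT (SD, n = 3 each), a difference of -2.10, and HHF2 differed by -1.65. The proteasome had 13 of 33 higher and 0 lower (26 and 0 on library size alone), with medians of -0.06 in G906D and -0.33 in WT cells. CHA1, which breaks down serine and threonine, fell by 0.80 in G906D and rose by 1.70 in WT cells, and OLE1, the fatty acid desaturase, fell by 0.71 in G906D and rose by 1.62 in WT cells, while on library size alone the G906D changes were -0.31 and -0.21 and did not pass the test. HSP104 was called lower in both strains, at -2.18 in G906D and -1.91 in WT cells, and the difference of -0.27 did not pass the test (SE 0.24, edgeR adjusted p = 0.41).

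**Figure D4:**
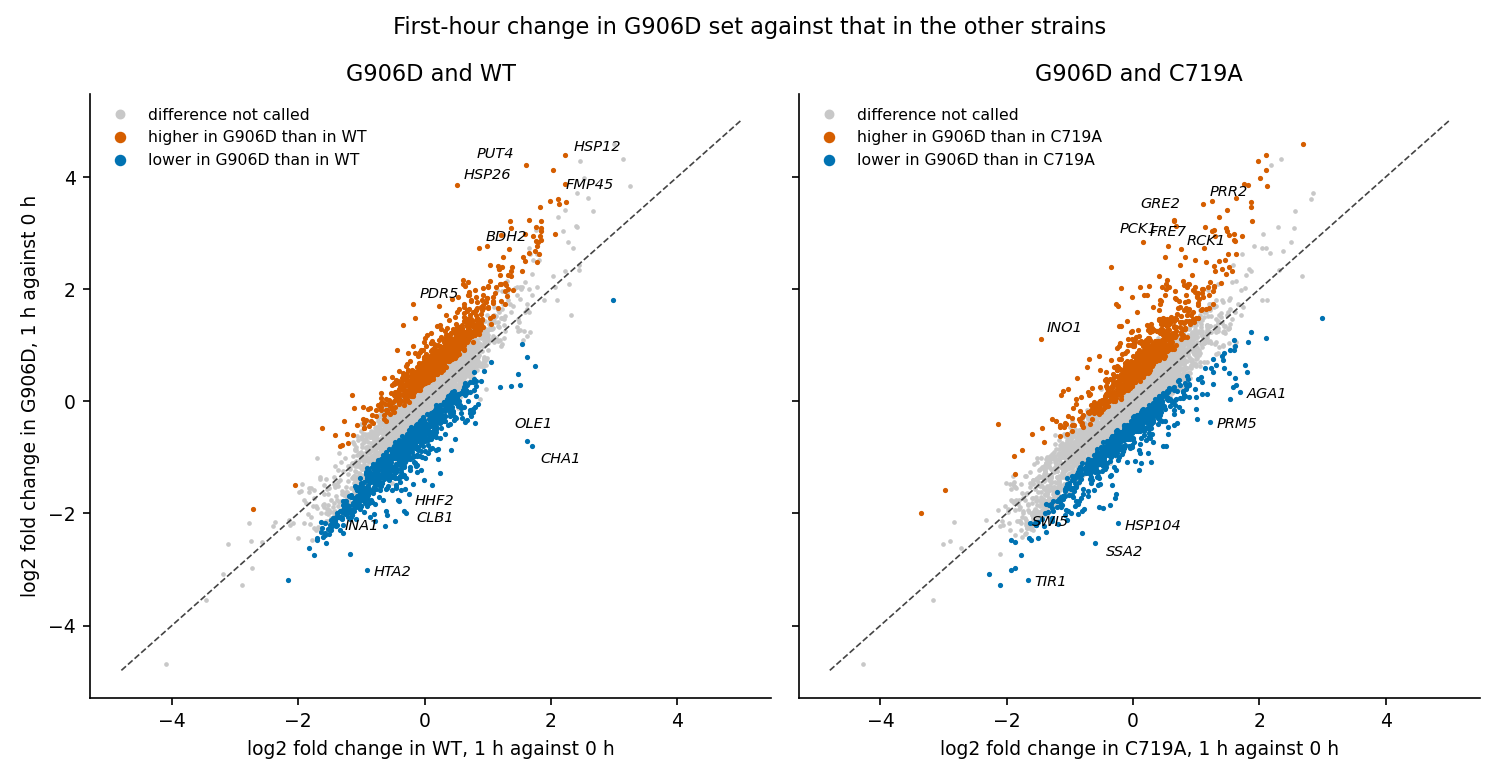
Log2 change over the first hour at 37 °C in the G906D strain (y axes) against that in the WT and in the C719A strain (x axes), each point 1 gene, coloured where the difference was called higher or lower in G906D; the dashed line marks equal change, and the genes with the largest called differences are named. HSP26 and PDR5 lie above the line in the WT panel, and CHA1 and OLE1 below it.

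Against the C719A strain the change was higher for 914 genes (14.3%) and lower for 706 (11.1%), between 1239 and 2011 in all with 1 library omitted at a time, the highest without replicate A of G906D at 1 h. On library size alone 1913 were higher and 223 lower. Chaperone genes were among the largest differences. HSP104 changed by -2.18 in G906D cells but by -0.24 in C719A cells, where it had 1310 ± 289 CPM at 1 h and 1545 ± 34.1 CPM at 0 h (SD, n = 3 each), a difference of -1.94 (SE 0.24, edgeR adjusted p = 8.1e-06). SSA2 differed by -1.93, SIS1 by -1.49, HSP42 by -1.31 and HSP82 by -1.31, and HSP82 rose by 0.52 in the C719A strain. HSP104 stood at 702 ± 116 CPM at 1 h and 3175 ± 71.3 CPM at 0 h in G906D cells (SD, n = 3 each), so it was below the C719A level at 1 h and above it at 0 h. For SSA2 the strains were nearer at 1 h than at 0 h: G906D cells had 478 ± 61.6 CPM of SSA2 at 1 h and 2761 ± 30.9 CPM at 0 h, and C719A cells had 491 ± 36.8 CPM at 1 h and 744 ± 82.7 CPM at 0 h (SD, n = 3 each). Of the Hsp70 partners 7 of 14 changed lower and 0 higher, and of Hsp90 and co-chaperones 6 of 12 and 0. On library size alone these became 2 lower and 3 higher, and 4 lower and 1 higher, and without C719A 1 h replicate C the Hsp70 partners had 3 lower. Aminoacyl-tRNA synthetases were lower for 9 of 18 and higher for 0, but lower for 5 without that library and for 2 on library size alone, and core histones lower for 8 of 10.

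The largest positive differences from the C719A strain included genes of several roles. PCK1 rose by 3.22 in G906D and by 0.64 in C719A cells, the oxidoreductase gene GRE2 by 3.23 and 0.65, the copper-regulated reductase FRE7 by 2.84 and 0.16 (not called in C719A), and INO1, which starts inositol synthesis, rose by 1.12 while it fell by 1.46 in the C719A strain. Mitochondrial ribosomal proteins were higher for 35 of 72 and lower for 1 (57 and 0 on library size alone), with medians of 0.07 in G906D, -0.27 in C719A and 0.38 in WT cells. Pheromone response genes were lower for 11 of 18 and higher for 0, and for 7 and 0 on library size alone. AGA1, an agglutinin subunit, was at 0.17 without a call in the G906D strain (0.67, called, on library size alone) and rose by 1.70 in the C719A strain. These comparisons with the WT and the C719A strain share the 6 G906D libraries.

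**Figure D5:**
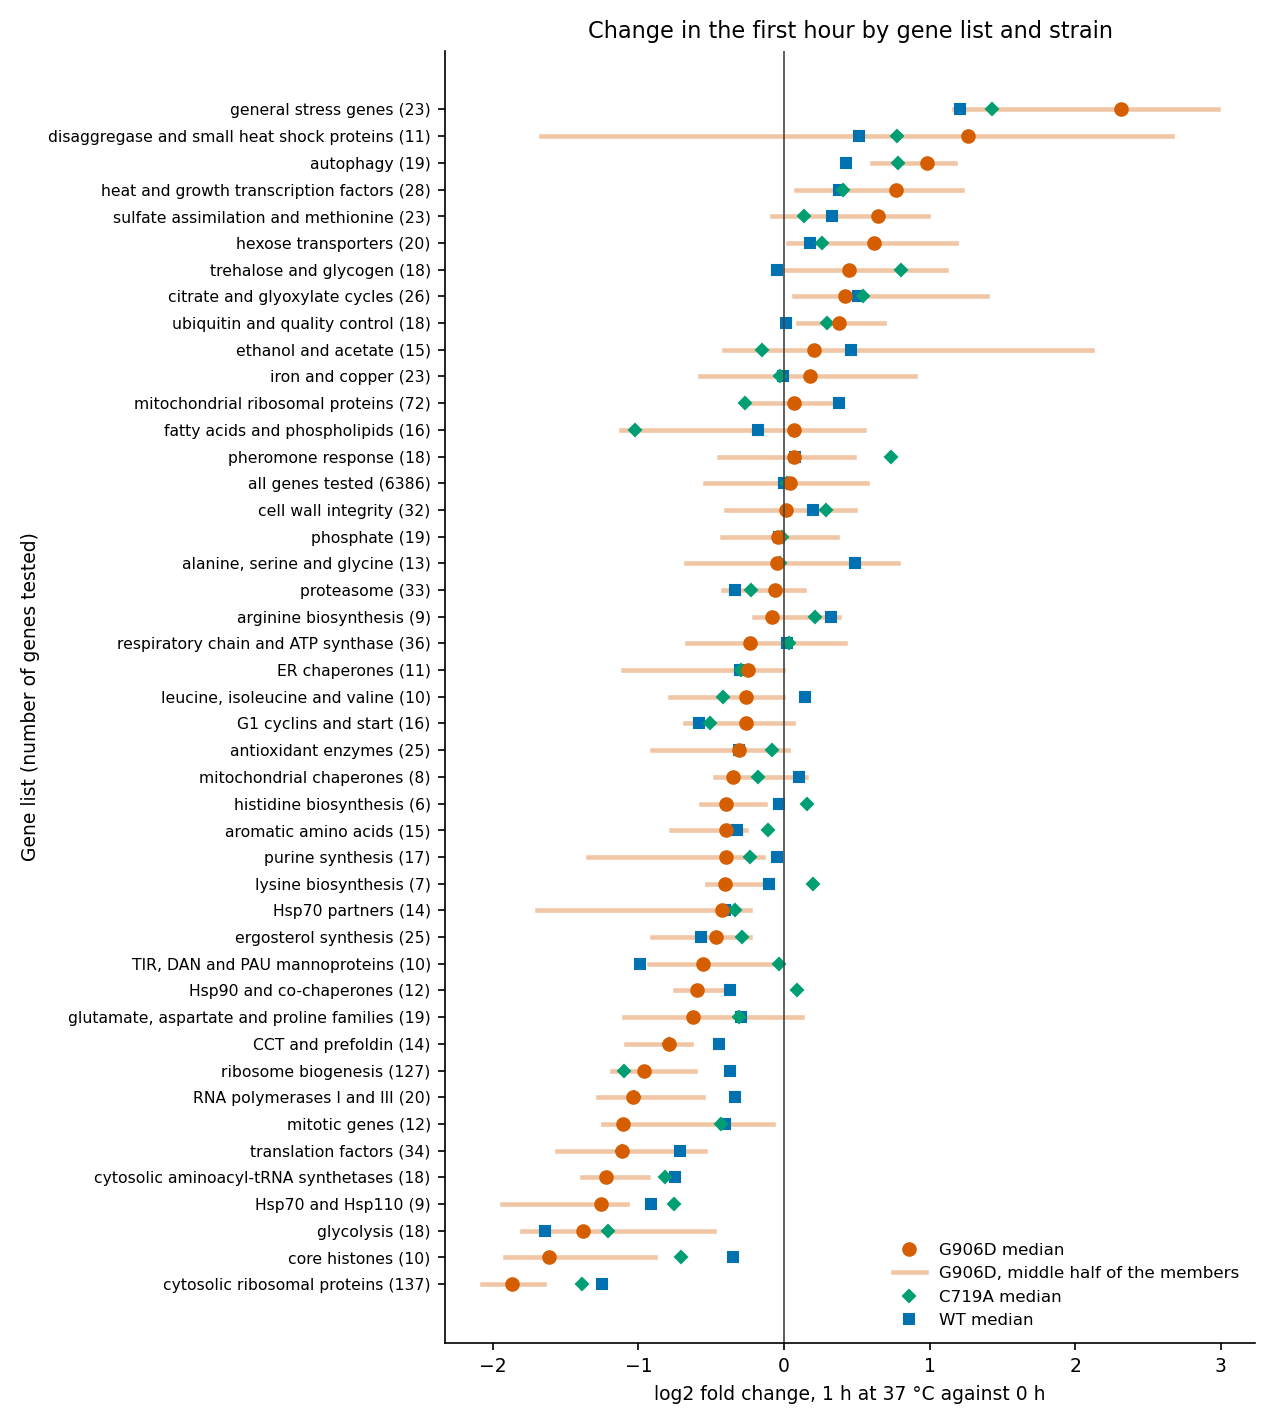
Median log2 change over the first hour at 37 °C (x axis) of each gene list (rows, with the number of genes tested) in the G906D, C719A and WT strains, with a bar over the middle 50 percent of the members in G906D. General stress genes have medians of 2.31, 1.43 and 1.21, and cytosolic ribosomal proteins of -1.87, -1.39 and -1.25.

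Between 1 h and 2 h at 37 °C in the G906D strain, 500 genes (7.83%) rose and 530 (8.3%) fell, in a comparison that shares the 1 h libraries. General stress genes had a median of -0.38 over that hour and ribosomal proteins one of 0.27, beside -0.008 for all genes. Few of them passed the test: 1 rose and 4 fell of 23 general stress genes, and 2 rose and 1 fell of 137 ribosomal protein genes. HSP12 stood at 359 ± 130 CPM at 0 h, 7543 ± 654 CPM at 1 h and 7294 ± 438 CPM at 2 h, and HSP104 at 3175 ± 71.3 CPM at 0 h, 702 ± 116 CPM at 1 h and 573 ± 54.0 CPM at 2 h (SD, n = 3 each). Neither passed the test between 1 h and 2 h, with log2 differences of -0.05 and -0.29. The mitotic genes CLB1 and SWI5, lowered in the first hour, rose by 1.53 and 1.22 in the second, and WSC4 by 1.30.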

How the data were processed

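RNA from G906D, C719A and WT cells was sequenced in 27 libraries, 3 for each strain at 0, 1 and 2 h, grouped by their labels. The authors deposited raw counts per gene for 7122 gene IDs and FPKM values, which they made from each count, the gene length and the library total. The submitters' processing notes name TopHat2 and Bowtie2. The genome build, the counting tool and the use of strand are not given in the sources used here. A locus tag of R64 was found for 6045 of them, and the lengths implied by counts and FPKM were within 0.2% of R64 for 95.4% of 5324 genes, so upstream sequence was cut from the R64 genome. No RefSeq promoter or protein table was used.

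Totals ranged from 14471528 to 23057641 counts per library. Their counting error is small for the well-expressed genes named, but not for those at low levels such as HSP32. The counts were fitted with edgeR 4.0.16 under R 4.3.3: filterByExpr left 6386 genes, libraries were scaled by TMM (factors 0.719 to 1.15), and a model with 1 mean for each of the 9 groups was fitted to all libraries with glmQLFit and tested with glmQLFTest, two-sided, with Benjamini-Hochberg adjustment at 0.05. CPM use the TMM-scaled totals, and SDs are over 3 libraries. The study calls the 3 lettered replicates of a group biological replicates. DESeq2 1.42.0, limma 3.58.1 on log2(FPKM + 1) and log2(FPKM + 0.1), other scalings, filters and sample sets, a replicate block, a test against a fold of 1.5 and leaving out each library were alternatives. Scripts were tested on simulated data. Figures and sequence searches used Python 3.11.15.

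The genes and the 49 lists were chosen with earlier results of these data known. Genes open to being named were the 10 largest rises and falls among protein-coding genes that have a symbol, reach a mean of 5 on the log2 CPM scale, pass 0.05 and show no overlap between the libraries of 1 h and 0 h, up to 4 called members each way of a list, any chaperone, transcription factor or marker gene of the lists, the 6 largest differences each way from the WT and from C719A, and ALA1, and not every one of them is named. FBA1, RPL3, TDH3, TSL1 and HYP2 were named after their values were seen.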

Additional observations from a re-analysis of the deposited data

Results flagged for a closer look

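The change over the first hour differed between the G906D strain and the others, by a test of the difference itself within edgeR's quasi-likelihood model, for 1880 of 6386 genes against the WT and for 1620 against the C719A strain. Values below are log2 changes in the G906D strain minus those in the other strain.

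Against the WT the largest positive differences were HSP26 at 3.33, PUT4 at 2.61, HSP12 at 2.17, FMP45 at 2.08, PDR5 at 1.91 and BDH2 at 1.88, with HSP12 and PUT4 at 0.78 and 0.79, not called, without WT 0 h replicate B. The largest negative ones were CHA1 at -2.50, OLE1 at -2.33, HTA2 at -2.10, the mitotic cyclin gene CLB1 at -1.70, the membrane protein gene INA1 at -1.67 and HHF2 at -1.65.

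Against the C719A strain the largest positive differences were FRE7 at 2.67, GRE2 at 2.58, INO1 at 2.58, PCK1 at 2.58, the stress-induced kinase gene RCK1 at 2.45 and the kinase gene PRR2 at 2.39. The largest negative ones were HSP104 at -1.94, SSA2 at -1.93, PRM5, a gene induced by pheromone and cell wall stress, at -1.59, and SWI5, TIR1 and AGA1 at -1.53 each.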

How the results depend on the processing

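With a test against a fold of 1.5, 2076 genes changed in the G906D strain. Scaling moved the directions: with library size alone 3859 genes rose and 1081 fell, and limma gave 3830 and 1090 on log2(FPKM + 1) and 3830 and 1082 on log2(FPKM + 0.1). At least 2-fold rises were then 1708, 1552 and 1688 genes and at least 2-fold falls 393, 382 and 392. Against the WT, 2078, 1866 and 1923 changes were higher and 341, 345 and 350 lower under these settings, and 801 genes differed (338 higher, 463 lower) when the 4 groups were fitted alone. Against the C719A strain, 1913, 1853 and 1867 were higher and 223, 229 and 222 lower. Small falls of named genes turned under the same 3 settings: GCN2 came to 0.41, 0.38 and 0.40, PRM5 to 0.13, 0.13 and 0.13 and UPC2 to 0.17, 0.15 and 0.16 on the log2 scale. DESeq2 called 4623 genes in the G906D strain. Of 133 named genes, 123 kept direction and call on library size alone, 124 in either limma fit and 120 against a fold of 1.5. Without 1 G906D library, 132 or 133 did: UPC2 lost its call without 0 h replicate B, 1 h replicate A or 1 h replicate B, and RRN3 without 1 h replicate C.

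With 1 library omitted at a time, 4269 to 4652 genes changed in the G906D strain (2256 to 2399 up, 2013 to 2253 down). Against the WT 1173 to 2554 genes differed, 644 to 1244 higher and 524 to 1310 lower, the highest without replicate A of G906D at 1 h. Against the C719A strain 1239 to 2011 differed, 744 to 1001 higher and 495 to 1010 lower.

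Between the G906D libraries of 1 h and 0 h, same-letter deviations from the group means correlated at 0.171 for A, -0.19 for B and 0.198 for C over 4692 genes. In the WT they correlated at 0.255, 0.106 and 0.414 and in the C719A strain at 0.259, 0.547 and 0.197 for A, B and C. Every pair of those strains was above 0.1, but in no strain did every library correlate best with its own letter. Deviations from means of 3 libraries cannot settle whether the letters pair the libraries. A replicate block, within each strain or shared over strains, gave 4535 and 4535 genes for the G906D strain, 1841 and 1812 against the WT and 1590 and 1562 against the C719A strain. With the block within each strain the differences of HSP12 and PUT4 from the WT were 1.80 and 2.17 and were no longer called.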
